A study of Mus musculus with 21 samples.

Results

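The transcriptional change between 4 h and 12 h after a low dose of antigen was measured by comparing the 3 libraries of the 0.8 µg 12 h group with the 3 libraries of the 0.8 µg 4 h group, which are 6 of the 21 libraries of the series. All mice were Tg4 Nr4a3-Tocky Il10-GFP (Tiger) mice. Their CD4+ T cells carry a transgenic T cell receptor (TCR) for a peptide of myelin basic protein (MBP), a fluorescent Timer protein driven from Nr4a3 regulatory sequence, and a GFP reporter of Il10. Both groups received 0.8 µg of the [4Y] MBP peptide under the skin of the flank, without adjuvant, and splenic CD4+ T cells were sorted 4 h or 12 h later. The age of the mice was not given in the sources used here, and both sexes were used in the study. The Timer protein is blue when newly made and turns red as it matures, and the study sorted Blue+Red- cells at 4 h, Blue+Red+ cells at 12 h and Blue-Red+ cells at 24 h. Time and sorting gate therefore changed together and cannot be told apart. The study used the transgenic TCR to follow T cells of 1 clonal niche, so the groups do not describe a natural repertoire. The other groups used here for reference were unimmunised control mice, mice that received 0.8 µg and were sampled at 24 h, and mice that received 80 µg and were sampled at 4 h or 12 h, with 3 mice in each. The comparison was made over all genes, of which the count table listed 47643, and 12925 of them could be tested.

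A TCR that binds its peptide switches on calcium, MAP kinase and NF-κB signalling within minutes. The first genes to respond encode transcription factors such as the Fos, Egr, Nr4a and Rel families, together with their own inhibitors (Dusp phosphatases, Tnfaip3, IκB proteins), and most of their transcripts are short-lived. Cells that have received enough signal then enlarge, leave the resting state and prepare to copy their DNA, so that the MCM helicase, the replication factors and the enzymes of nucleotide synthesis appear before the mitotic genes. Expression was measured with QuantSeq, in which sequencing starts at the 3′ end of each mRNA, and is given as normalised read counts (counts divided by the library's DESeq2 size factor). Such counts are compared between samples for 1 gene at a time, never between genes.

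The 6 libraries held 2715246 to 4265658 counts. The most counted gene in every one of them was Gm42418, a gene model that takes up ribosomal RNA reads, with 17% to 25.7% of the counts. Mitochondrial mRNAs took 1.23% to 1.53% of the counts at 4 h and 1.65% to 1.99% at 12 h, so the groups did not overlap in this measure, and its part in the gene results was not tested. In both groups replicates 1 and 2 were high in Xist and replicate 3 was high in Ddx3y, so the groups matched in these sex-linked genes. The labelled cell type carried its markers: Cd4 was at 845 ± 122 normalised counts at 4 h and 816 ± 62.9 at 12 h (mean ± SD, n = 3, as for all means here). Summed over the 10 T cell markers, the level was 2009 to 2164 CPM (counts scaled to a library total of 1e6) at 4 h, 1441 to 1529 at 12 h and 3482 to 3587 in the control. The 4 h and 12 h sums did not overlap. DESeq2 called 3 of the 10 lower at 12 h, against 6.47% of all genes, and none higher. By the adjusted p alone 7 were lower, against 17.3% of all genes, and the median log2 fold change was -0.52. The part of this decrease in the gene results was not tested. The 14 B cell markers summed to 64.27 to 119.6 CPM at 4 h and 49.45 to 164.8 at 12 h, and the 18 myeloid markers to 29.84 to 70.34 and 48.81 to 79.5, with Cd14, Ly6g and Mpo at 0 in all 6 libraries. The dendritic cell markers other than Irf8, which T cells also express after stimulation, summed to 9.74 to 20.1 CPM at 4 h and 17.1 to 28.7 at 12 h, with Zbtb46, Clec9a and Cd209a at 0. The erythroid markers summed to 22.95 to 146.2 and 61.89 to 146.1 CPM, with Klf1 at 0. Of the CD8 and NK cell markers 1 was called, Cd8a, at 4.04, 5.27 and 4.32 normalised counts at 4 h and 56.9, 45.9 and 58.7 at 12 h. The other members of that list, without Cd8a and Cd8b1, summed to 1.1 to 2.9 CPM at 4 h and 4.79 to 5.83 at 12 h, with Ncr1 at 0. These groups did not overlap either, and the part of such cells in the results was not tested.

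Between 4 h and 12 h, transcripts of the immediate response to the TCR decreased (15 of 28 early response factors and 16 of 24 NF-κB genes were lower) and those of DNA replication increased (50 of 66 were higher). In all, 1166 genes were higher at 12 h, which is 9.02% of the genes tested, and 836 were lower, which is 6.47%. The counts of list members given below are read against these shares, and a count near them is no result about the list. Calls required a DESeq2 adjusted p (Benjamini-Hochberg) under 0.05 together with a shrunken log2 fold change beyond 1 in either direction, that is, a change of more than 2-fold after shrinkage of the estimate. Without the threshold on size, 4794 genes had an adjusted p under 0.05. Of the 2002 called genes, 1959 had no overlap between the 3 libraries at 4 h and the 3 at 12 h, against 46.7% of all genes tested. The median change over all tested genes was 0.05 on the log2 scale. The normalisation holds this median close to no change, so it does not show how many genes changed. Fold changes printed below are the unshrunken log2 estimates ± SE with positive values for higher at 12 h, since shrinkage in this fit moved estimates with few counts strongly and gave 779 of the tested genes the opposite sign, none of them among the called genes. By the unshrunken estimate, 261 of the called genes were over 8-fold higher at 12 h and 92 were over 8-fold lower. In bulk samples, fewer cells that express a gene and less RNA per cell cannot be told apart.

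**Figure D1:**
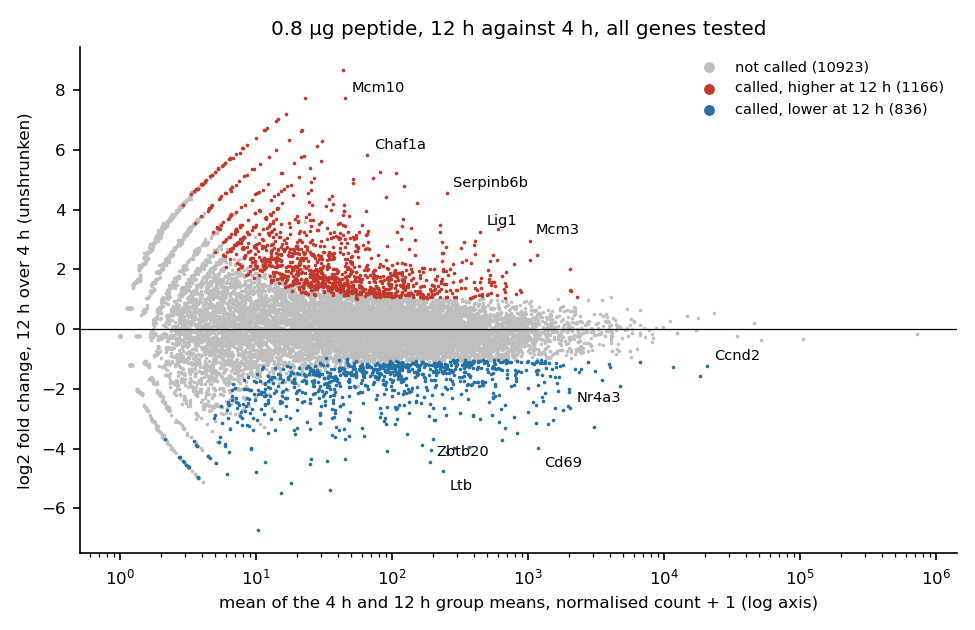
Unshrunken log2 fold change (12 h over 4 h, 0.8 µg, y axis) against the mean of the 4 h and 12 h normalised counts plus 1 (x axis, log scale) for every tested gene, 1 point each, with the 1166 genes called higher and the 836 called lower in colour and 10 genes labelled. The labelled replication genes Mcm10, Chaf1a, Mcm3 and Lig1 lie in the upper part and the activation genes Cd69 and Nr4a3 in the lower part, while Ccnd2 is the most abundant labelled gene and lies below 0.

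The 10 genes with the largest increases by the shrunken estimate, among called genes with no overlap between groups and a mean of at least 50 normalised counts in the higher group, included 5 with known roles in chromatin assembly and replication. Chaf1a, which encodes a subunit of the chromatin assembly factor that places histones on newly made DNA (ENSMUSG00000002835, chromosome 17, 56040439 to 56072289, plus strand), was at 0, 1.32 and 5.4 normalised counts in the 4 h libraries and 114, 103 and 166 in the 12 h libraries. Uhrf1 (ENSMUSG00000001228, chromosome 17, 56303321 to 56323486, plus strand), which brings the maintenance DNA methyltransferase to replicated DNA, was at 2.02, 2.63 and 7.55 at 4 h and 142, 112 and 161 at 12 h. Every 12 h library was far above every 4 h library for both genes, with log2 fold changes of 5.82 ± 0.63 (adjusted p = 1.15e-18) and 5.06 ± 0.47 (adjusted p = 8.55e-25). Mcm10 (ENSMUSG00000026669, chromosome 2, 4989714 to 5012791, minus strand), which helps to activate the replicative helicase, had 1 raw count over the 4 h libraries together and 61.8, 48.9 and 153 normalised counts at 12 h (adjusted p = 3.48e-09). No fold is given for it, because so few counts leave the lower level undetermined. Orc1, the large subunit of the origin recognition complex, was at 3.1 ± 3.03 and 97.8 ± 16.6, and Dtl, a substrate receptor of the ubiquitin ligase that clears licensing factor Cdt1 in S phase, was at 15.2 ± 4.73 and 287 ± 72.7. The remaining genes of the first 10 by that estimate were Stat4, Tbc1d4, Serpinb6b, Ccdc34 and Rpph1. Stat4 (ENSMUSG00000062939, chromosome 1, 51987148 to 52107189, plus strand), the signal transducer of IL-12 receptors, was at 10.1, 1.32 and 4.32 at 4 h and 217, 253 and 148 at 12 h (log2 fold change 5.22 ± 0.41). Its exons overlap those of a read-through gene model on the same strand, so part of its reads could belong there. Tbc1d4, a Rab GTPase activator that controls glucose transporter traffic, was at 8.38 ± 2.83 and 236 ± 41.7. Serpinb6b, a serine protease inhibitor, was at 20.9 ± 8.24 and 481 ± 212. Ccdc34 was at 2.94 ± 0.98 and 98.6 ± 28.7, and Rpph1, the RNA of ribonuclease P, was at 8.13 ± 3.23 and 169 ± 49.9, with exons that overlap Ccnb1ip1.

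The 10 genes with the largest decreases by the shrunken estimate, chosen in the same way, had various known roles. Ltb (ENSMUSG00000024399, chromosome 17, 35194439 to 35196320, plus strand), which encodes lymphotoxin β, was at 525, 337 and 505 normalised counts at 4 h and 10.8, 15 and 25.8 at 12 h, a log2 fold change of -4.76 ± 0.31 (adjusted p = 3.26e-52). Cd69 (ENSMUSG00000030156, chromosome 6, 129267325 to 129275436, minus strand), an early activation marker that holds T cells in lymphoid tissue, was at 2011, 2474 and 2218 at 4 h and 105, 187 and 126 at 12 h (log2 fold change -3.99 ± 0.15). The libraries of the groups did not overlap for either gene, and the 12 h mean of Cd69 was 139 ± 42.4 against 201 ± 24 in control cells. Zbtb20 (ENSMUSG00000022708, chromosome 16, 42875881 to 43642602, plus strand), a zinc finger repressor, went from 359 ± 44.4 to 17 ± 8.92, a log2 fold change of -4.44 ± 0.29, against 1154 ± 94.4 in the control. Jak2, the kinase that serves the receptors for interferon γ and IL-12, was at 1204 ± 221 and 91.6 ± 16.3. Slamf1, a costimulatory receptor, was at 1236 ± 109.6 and 125 ± 24.5. The other genes of the first 10 that fell were Nr4a2 and Tnfaip3, described with their families below, and Ndrg1 (364 ± 51.2 to 21 ± 11.8), which is linked to T cell anergy, Myo10 (366 ± 19.4 to 28.8 ± 7.43), an unconventional myosin, and Tnnt2 (533 ± 89.9 to 34.6 ± 7.53), the cardiac form of troponin T.

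Among immediate early and early response transcription factors, the calls were all decreases. Of 28 tested, 15 were lower at 12 h and none was higher, with 3 higher by the adjusted p alone (3 also at an unadjusted p under 0.05, and none called by edgeR or limma-voom) and a median log2 fold change of -1.40 against 0.05 over all genes. The orphan nuclear receptors of the Nr4a family, which are induced by calcium signals from the TCR, all fell. Nr4a1 was at 1877, 2466 and 2184 at 4 h and 449, 535 and 503 at 12 h (log2 fold change -2.13 ± 0.38), and Nr4a2 was at 422, 559 and 454 and 27.4, 22.6 and 35.2 (log2 fold change -4.10 ± 0.24). Nr4a3 (ENSMUSG00000028341, chromosome 4, 48045153 to 48086447, plus strand) was at 3509.8, 3649 and 3449.8 at 4 h and 444, 472 and 769 at 12 h. Nr4a3 sequence drives the Timer protein by which the cells were sorted, so its level is not independent of the gates. The groups did not overlap for any of the 3 genes, and the 12 h means remained above those of control cells, which were 36.4 ± 24.4, 3.95 ± 1.85 and 26.1 ± 12.3 for Nr4a1, Nr4a2 and Nr4a3. The zinc finger factors Egr1 (559 ± 70.4 to 154 ± 63.4) and Egr2 (102 ± 24.1 to 17.8 ± 6.17) fell, as did the AP-1 subunits Fos (142 ± 19.4 to 18.5 ± 7.13), Fosl2, Junb (789.5 ± 146 to 276 ± 61.3) and Jund. Myc, which drives cell growth, was at 813, 1069.7 and 871 at 4 h and 139, 266 and 156 at 12 h (log2 fold change -2.28 ± 0.21). Ier3, Ier5, Maff, Rel and Irf4 completed the group. Irf4, whose level follows TCR signal strength, was at 1015, 1429 and 909 and 494, 626 and 492, and its shrunken log2 fold change no longer passed the threshold of 1 without 12 h replicate 1 (-0.97), 12 h replicate 3 (-0.96) or 4 h replicate 2 (-0.82).

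**Figure D2:**
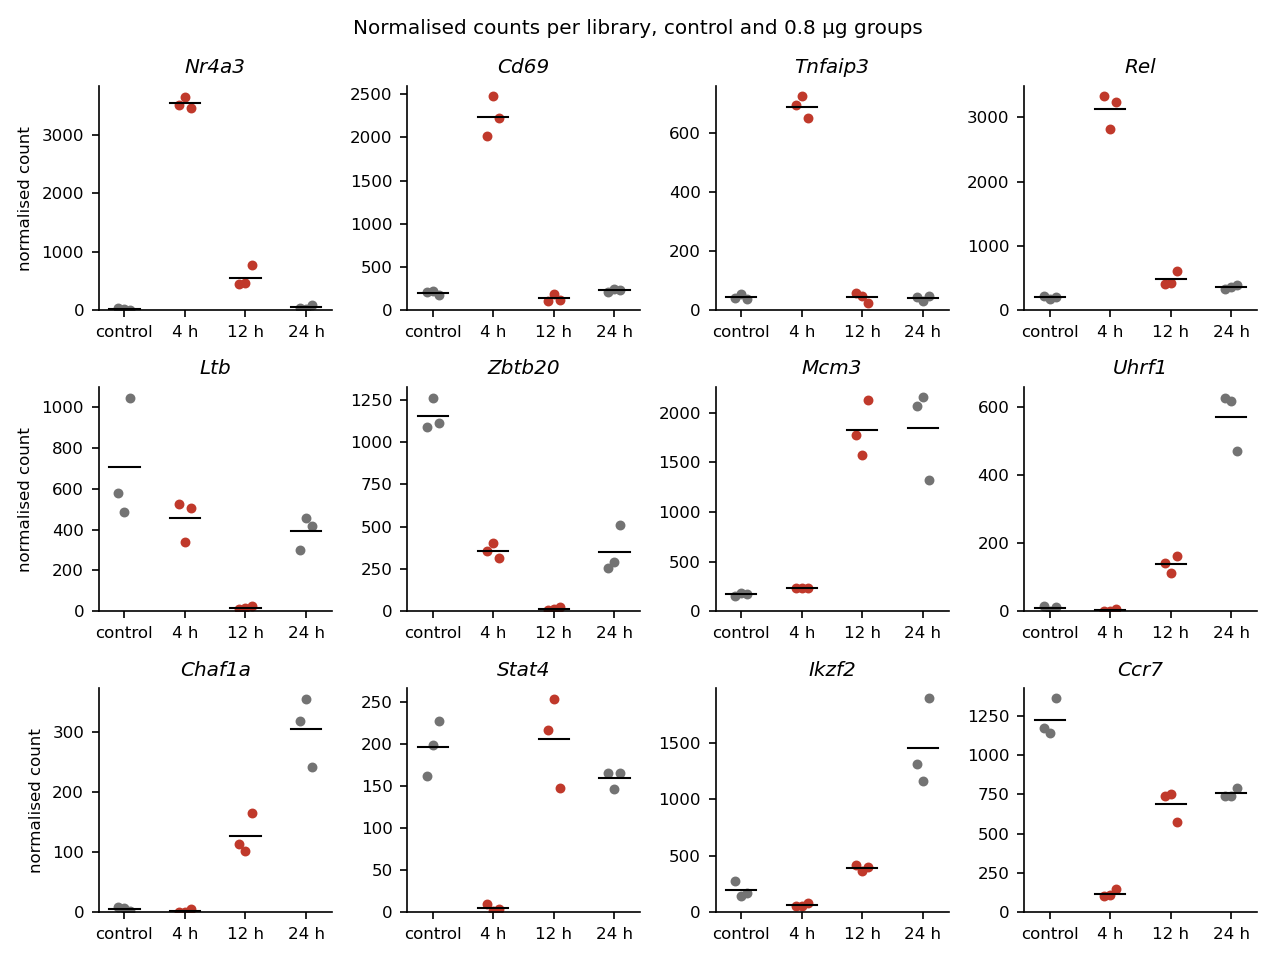
Normalised counts (y axis, linear and from 0 in each panel) of 12 genes in the libraries of the control and of the 0.8 µg groups at 4 h, 12 h and 24 h, 1 point per mouse with a bar at the group mean, and the 4 h and 12 h groups in red. Nr4a3, Cd69, Tnfaip3, Rel, Ltb and Zbtb20 drop between 4 h and 12 h, Mcm3, Uhrf1, Chaf1a, Stat4, Ikzf2 and Ccr7 climb, and in each panel the 4 h points do not meet the 12 h points.

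NF-κB pathway genes were mostly lower too. Of their 24 tested genes, 16 were lower at 12 h and 1 was higher, with a median log2 fold change of -1.5. The subunits fell together: Rel (ENSMUSG00000020275, chromosome 11, 23736847 to 23770970, minus strand) from 3326, 2820.4 and 3231 to 417, 421 and 607 normalised counts (log2 fold change -2.70 ± 0.13), Nfkb1 from 3263 ± 237 to 764 ± 14.2, and Nfkb2 and Relb likewise. So did the inhibitors that NF-κB itself induces. Nfkbia, which encodes IκBα, went from 7446 ± 866 to 1994 ± 115, and Nfkbid, an atypical nuclear IκB, from 2749.7, 2658 and 2730.1 to 269.6, 261 and 468 (log2 fold change -3.04 ± 0.16). Tnfaip3 (ENSMUSG00000019850, chromosome 10, 19000910 to 19015657, minus strand), the ubiquitin editing enzyme A20 that shuts off the pathway, was at 692, 723 and 649.6 at 4 h and 58.8, 48.1 and 24.7 at 12 h (log2 fold change -3.95 ± 0.21, adjusted p = 1.77e-73). Its 12 h mean of 43.9 ± 17.5 lay beside the control mean of 45.2 ± 9.27.

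Promoter windows of these genes were searched for the letters that NF-κB is known to recognise. Each window runs from 250 bases before to 50 bases after a RefSeq transcription start on GRCm38.p6, 5′ to 3′ on the gene's strand. Both strands were searched for the κB letters GGGNNTTTC, and capitals mark the matches, which appear here as the reverse complement. Of 25 windows of the NF-κB pathway genes, 8 held a match (32%), against 4.36% of 32851 windows of all genes and 1 of 27 windows (3.7%) of the early response factors. The pathway list was chosen to include known targets of NF-κB, so its higher share describes that choice and is no result of these data. The 1 matching window of the early response factors is that of Rel, which belongs to both lists. A form with 1 further C, searched first and then shortened after its counts were seen, was found in 7 of the 25 windows (28%), in 1 of the 27 (3.7%) and in 1.63% of all windows. Among genes called lower, Nfkb2, Nfkbia, Rel and Tnfaip3 held the shorter form. The longer form contains the shorter, and matches of different motifs can share bases. A match describes letters only and is not evidence of binding. The windows of Tnfaip3 (chr10:19015361-19015660, minus strand) and Rel (chr11:23770920-23771219, minus strand) are shown because both genes were among the deepest decreases of the pathway.
Tnfaip3: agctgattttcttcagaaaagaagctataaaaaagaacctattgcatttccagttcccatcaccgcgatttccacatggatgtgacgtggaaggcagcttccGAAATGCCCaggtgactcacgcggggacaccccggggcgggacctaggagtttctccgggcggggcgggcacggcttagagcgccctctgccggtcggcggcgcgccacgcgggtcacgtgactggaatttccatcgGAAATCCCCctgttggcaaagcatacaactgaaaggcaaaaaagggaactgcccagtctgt
Rel: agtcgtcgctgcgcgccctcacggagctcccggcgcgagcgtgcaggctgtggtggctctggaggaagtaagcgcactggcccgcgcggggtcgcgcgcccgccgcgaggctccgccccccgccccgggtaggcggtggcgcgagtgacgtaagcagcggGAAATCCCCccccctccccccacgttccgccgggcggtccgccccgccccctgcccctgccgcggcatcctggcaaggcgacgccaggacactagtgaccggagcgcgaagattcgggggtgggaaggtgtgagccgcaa

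Negative feedback on MAP kinases, the TCR machinery itself and the costimulatory receptors gave fewer calls, and most of those were decreases. Of 14 feedback genes of the MAP kinase pathway, 3 were lower and 1 was higher, against 6.47% and 9.02% of all genes. Dusp1, a phosphatase of MAP kinases, was at 67.6, 109 and 70.1 at 4 h and 3.92, 9.03 and 5.87 at 12 h, and Spry1, an inhibitor of Ras signalling, was at 193 ± 41.7 and 23.6 ± 8.39. Dusp10 rose from 7.27 ± 2.1 to 32.3 ± 15.9. Of 28 genes of proximal TCR signalling, 9 were lower and none was higher (Cd3e, Trac, Cd5, Ptprc, Ptpn22, Fyn, Lcp2, Rasgrp1 and Prkcq), with a median log2 fold change of -0.71. By the adjusted p alone 3 were higher and 17 were lower, the 3 also at an unadjusted p under 0.05, and edgeR and limma-voom called none higher. Cd5, an inhibitory receptor that tunes TCR signals, was at 266, 250.3 and 229.8 and 73.5, 49.6 and 37.6 (log2 fold change -2.21 ± 0.19), against 401 ± 39 in control cells. Lcp2, the adaptor SLP-76, went from 1002 ± 80.5 to 389.6 ± 32.3. Cd3e, a chain of the receptor complex, was at 691, 601 and 698 and 259.8, 315 and 376. The decrease in Cd3e was no longer called without 12 h replicate 1 (shrunken value -0.93) or without 4 h replicate 3, where the shrunken value fell just short of the threshold. Rasgrp1, which activates Ras, was at 491 ± 37.3 and 227 ± 43.2, and was not called without 12 h replicate 3 (-0.93) or 4 h replicate 1 (-0.98). Lck, the kinase that starts the cascade, was at 938 ± 36.7 and 727 ± 47.2 and was not called, and neither was Cd3g (199 ± 14.6 and 106 ± 16.1). Lck and Cd3g were at 2095 ± 30.6 and 465 ± 93.6 in the control, above both times.

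Of 21 costimulatory and activation receptors, 8 were lower and none was higher (Cd69, Slamf1, Slamf6, Cd27, Cd82, Cd40lg, Tnfrsf25 and Tfrc), while 4 were higher by the adjusted p alone (4 also at an unadjusted p under 0.05) and none was called higher by edgeR or limma-voom. Cd40lg, the ligand by which T cells help B cells, was at 644, 694 and 701 at 4 h and 124, 168 and 258 at 12 h (log2 fold change -1.90 ± 0.19). The TNF receptor family members Tnfrsf9 (1944 ± 125 and 1099 ± 208) and Tnfrsf4 (306 ± 42 and 455 ± 147) were not called, nor was Icos (259 ± 73.7 and 480.0 ± 124). These 3 genes were above their control means of 16.6 ± 8.74, 40.4 ± 10.6 and 263 ± 40.7 at 12 h. Of 15 coinhibitory genes, 4 were lower and none was higher by DESeq2, with 2 higher by the adjusted p alone, 3 at an unadjusted p under 0.05, and 2 called by edgeR and by limma-voom. Vsir, which encodes the checkpoint protein VISTA, was at 1642, 1547 and 1409 and 90.2, 125 and 196 (log2 fold change -3.49 ± 0.29). Cd274, the ligand of PD-1, fell from 604 ± 21.3 to 119 ± 15.1, and Pdcd1, PD-1 itself, fell from 104 ± 17.4 to 37.1 ± 9.75, with Btla lower as well. Ctla4 was at 4.04, 5.27 and 1.08 at 4 h and 34.3, 70.7 and 16.4 at 12 h, and all 12 h libraries were above all 4 h libraries. It was not called here, because its shrunken value stayed under 1, while edgeR gave a log2 fold change of 3.61 (adjusted p = 4.49e-07) and limma-voom 3.46 (adjusted p = 0.0028). Lag3 (1.75 ± 1.64 and 4.16 ± 1.63) was near the floor of 3 counts per library at both times, and Tigit had 0 counts in all 6 libraries.

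Cytokine genes divided into those that fell and those that rose. Of 27 tested, 8 were lower and 4 were higher. Il2, the growth factor of T cells, was at 169, 191 and 106 at 4 h and 10.8, 22.6 and 21.1 at 12 h (log2 fold change -3.09 ± 0.39), and Tnf was at 1106, 1266 and 871 and 131, 181 and 202 (log2 fold change -2.66 ± 0.23). The libraries did not overlap for either gene. Ltb, Lta, Tgfb1, Tnfsf14, Cxcl10 and Ccl4 were the others that fell. Ccl4, a chemokine, had 2 raw counts at 12 h in all and 14.1, 32.9 and 5.4 normalised counts at 4 h. Ifng (ENSMUSG00000055170, chromosome 10, 118441046 to 118445892, plus strand), which encodes interferon γ, was at 7.07, 5.27 and 0 at 4 h and 109.8, 120.3 and 241 at 12 h. The 12 h libraries were all above the 4 h libraries (log2 fold change 5.26 ± 0.96, adjusted p = 5.08e-07), and no control library had a count. A gene model on the same strand overlaps its exons. Lif, a cytokine of the IL-6 family, was at 9.08, 32.9 and 4.32 and 91.2, 198 and 55.2, and was not called without 12 h replicate 2 (shrunken value 0.95). Il16 rose from 24.5 ± 3.64 to 79.9 ± 34 and remained under its control mean of 517 ± 4.89, and Osm was the fourth gene that rose. Il10 had no count at 4 h and 3.92, 1.5 and 0 normalised counts at 12 h, and Il21 was at 0.78 ± 0.69 and 2.39 ± 2.45. Neither was called, and the 12 h values were at or near the floor of 3 counts.

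Among 29 cytokine receptor genes, 6 were higher and 3 were lower. Il12rb2, the inducible chain of the IL-12 receptor, had 2 raw counts over the 4 h libraries and 53.9, 96.3 and 24.7 normalised counts at 12 h (adjusted p = 1.33e-07). Il12rb1, its partner chain, rose as well. Il2rb, the signalling β chain shared by the IL-2 and IL-15 receptors, was at 199.9, 250.3 and 163 at 4 h and 795, 837 and 799.6 at 12 h (log2 fold change 1.99 ± 0.16). Il2ra, the α chain that raises affinity for IL-2, was at 1323 ± 317 and 887 ± 189 and was not called. Il7r, which supports resting T cells, rose from 14.5 ± 3.44 to 95.1 ± 11.1, far under the control mean of 2627 ± 594. Tgfbr3 (13 ± 4.71 to 93.3 ± 22.9) and Il1r1 were the other receptors that rose. The common γ chain Il2rg fell from 1708 ± 127 to 603 ± 41.4, with Il27ra and Crlf2 (128 ± 12.4 to 48 ± 11.8). Of 20 genes of JAK-STAT signalling and its feedback, 2 rose, a share near the 9.02% of all genes, and 3 fell, against 6.47%. Stat4, the transducer of IL-12 signals, was among those that rose, from 5.24 ± 4.46 to 206 ± 53.6. Stat5a fell from 1229.7 ± 168 to 398 ± 33.5, and the STAT5 target Pim1, a survival kinase, fell from 1426, 2175 and 1667 to 224, 326 and 218 (log2 fold change -2.77 ± 0.16), with Jak2 as the third.

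The factors that set T helper fate changed in both directions, with 7 of 37 higher and 10 lower. Maf, which supports Il10 and Il21 transcription, was at 25.2, 59.3 and 27 at 4 h and 413, 588 and 232 at 12 h (log2 fold change 3.49 ± 0.37). Ikzf2, which encodes Helios, was at 60.6, 60.6 and 79.8 and 422, 363 and 402 (log2 fold change 2.56 ± 0.22). Neither gene's libraries overlapped, and Ikzf4, Ahr, Zbtb32, Nfatc2 and Ets1 rose with them. Myb, a factor of progenitor and memory cells, was at 643, 656 and 758 and 107, 73 and 103 (log2 fold change -2.88 ± 0.17). Tox2, a relative of the exhaustion factor Tox, went from 87.3 ± 44.4 to 7.01 ± 6.47. Tbx21, the master factor of Th1 cells, was at 164, 150.2 and 135 and 86.3, 70 and 38.8, and its decrease was not called without 12 h replicate 3 (shrunken value -0.95). Bcl6, Batf, Irf4, Ikzf3, Nfatc1, Zeb2 and Pou2af1 also fell. Gata3 (413 ± 72.5 and 334 ± 51.1), Rora (111 ± 60.9 and 128 ± 111) and Nfil3 (1.42 ± 1.66 and 5.96 ± 2.01) were not called. Irf8 was at 3172, 4306 and 2889.8 and 1866, 2197 and 2236, with no overlap between the groups, and also was not called.

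Calls among genes of the resting state and of traffic went in both directions. Of 31 quiescence genes, 6 were higher at 12 h and 7 were lower. Rflnb was at 1.01, 9.22 and 5.4 and 50, 39.9 and 57.5 (log2 fold change 3.31 ± 0.45), and Arl4c, a small GTPase, was at 11.1, 10.5 and 16.2 and 57.8, 54.9 and 49.3 (log2 fold change 2.09 ± 0.31). Both stayed far below their control means of 1103 ± 98.1 and 1189 ± 155. Foxo1, Klf3, Ccnd3 and Evl rose as well. Btg1 and Btg2, which restrain proliferation and promote mRNA deadenylation, instead fell, Btg1 from 1328, 1242 and 1593 to 158, 159 and 228 (log2 fold change -2.94 ± 0.17) and Btg2 from 206 ± 12.5 to 52.8 ± 17.4. Foxp1, Bach2, Tob1, Pik3ip1 and Slfn2 fell with them, so the members of the list did not move one way. Of 25 homing and egress genes, 4 were higher and 2 were lower, the latter a share near the 6.47% of all genes. Ccr7, the receptor that guides T cells to lymphoid tissue, was at 104, 108 and 147 and 742, 751 and 576 (log2 fold change 2.53 ± 0.16), against 1225 ± 121 in the control. S1pr4, a sphingosine phosphate receptor, rose from 6.68 ± 4.7 to 29 ± 4.69, with Selplg and P2rx7. The oxysterol receptor Gpr183 fell from 2543 ± 135 to 829 ± 86.1 and Gpr18 from 219.7 ± 80 to 70.7 ± 16.1.

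Of 19 genes linked to anergy, 2 were higher and 5 were lower, against 9.02% and 6.47% of all genes. Dtx1, a ligase of the Notch pathway, was at 64.6, 47.4 and 80.9 at 4 h and 415, 373 and 513 at 12 h (log2 fold change 2.73 ± 0.18), and Izumo1r, which encodes folate receptor 4, was at 57.9 ± 10.2 and 135 ± 8.66. The call of Izumo1r was lost without 4 h replicate 1 (shrunken value 0.97). Egr2 and Ndrg1 had the largest decreases of the list. Of 20 survival and death genes, 4 were lower and 1 was higher, the latter a share below that of all genes. Bcl2l11, which encodes the death protein Bim, was at 2816, 2852 and 2524 and 497, 505 and 299 (log2 fold change -2.65 ± 0.14). Fasl, the ligand of the death receptor Fas, was at 313, 341 and 333 and 40.2, 57.9 and 31.7 (log2 fold change -2.91 ± 0.29), and Fas and Bcl2l1 were the others that fell. Death-promoting and protective genes were therefore both among the decreases. Bad rose from 4.65 ± 2.98 to 20.6 ± 9.71, and was not called without 12 h replicate 3 (shrunken value 0.96).

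DNA replication was the list with the most calls. Of 66 tested genes, 50 were higher at 12 h (against 9.02% of all genes) and 1 was lower, with a median log2 fold change of 2.09. The 6 subunits of the MCM helicase rose together. Mcm3 (ENSMUSG00000041859, chromosome 1, 20802968 to 20820312, minus strand) was at 231, 238 and 233 at 4 h and 1775, 1572 and 2127 at 12 h (log2 fold change 2.96 ± 0.15), and Mcm4 was at 79.7, 101 and 101 and 717, 742 and 712 (log2 fold change 2.95 ± 0.19). For Mcm2, Mcm5, Mcm6 and Mcm7 the log2 fold changes were 2.32 ± 0.15, 2.81 ± 0.18, 2.48 ± 0.16 and 2.33 ± 0.16. The factors that load and start the helicase, Orc1, Cdc6, Cdc45 and Gins1 to Gins4, rose, as did Lig1, the ligase that joins Okazaki fragments (82.9 ± 14.3 to 800.4 ± 184). Ccne1, the cyclin that starts S phase, went from 2.93 ± 3.07 to 43.7 ± 14.6, and E2f1, the factor that drives many of these genes, from 7.61 ± 3.44 to 73.7 ± 44. Ccnd2, a G1 cyclin that mitogens induce early, was the member that fell, from 29474, 28552 and 29961 to 11684, 10522 and 15246 (log2 fold change -1.23 ± 0.11). Pcna, the sliding clamp, was at 423 ± 39.3 and 556 ± 58.2 and was not called, and neither was Ccne2 (15.3 ± 7.44 and 6.94 ± 1.95).

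The E2F letters TTTCCCGC or TTTGGCGC were searched on both strands of the same promoter windows, because E2F factors bind such sites at replication genes. Of 63 windows of the replication genes, 18 held a match (28.6%), against 1.56% of all 32851 windows and 4 of 60 windows of the mitotic genes (6.67%). Letters and list were both chosen from what is known of these genes, so the higher share describes that choice and is no result of these data. Among the 40 genes called higher that had a window, 13 held a match, namely Cdc6, Cdk2, Cdt1, Dnmt1, Gins3, Mcm3, Mcm5, Mcm6, Mcm7, Pola1, Pold1, Pole2 and Rfc3. The windows of Mcm3 (chr1:20820263-20820562, minus strand) and Cdc6 (chr11:98907901-98908200, plus strand) are shown as examples, with the matched letters in capitals. The window of Mcm3 holds both forms within its last bases, downstream of the annotated start.
Mcm3: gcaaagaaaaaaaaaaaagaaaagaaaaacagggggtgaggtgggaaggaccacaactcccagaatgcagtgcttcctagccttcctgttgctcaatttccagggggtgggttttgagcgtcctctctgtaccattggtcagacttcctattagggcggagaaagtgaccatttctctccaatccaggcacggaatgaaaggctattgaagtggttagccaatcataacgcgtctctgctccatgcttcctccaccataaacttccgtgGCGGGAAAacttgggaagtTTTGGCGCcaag
Cdc6: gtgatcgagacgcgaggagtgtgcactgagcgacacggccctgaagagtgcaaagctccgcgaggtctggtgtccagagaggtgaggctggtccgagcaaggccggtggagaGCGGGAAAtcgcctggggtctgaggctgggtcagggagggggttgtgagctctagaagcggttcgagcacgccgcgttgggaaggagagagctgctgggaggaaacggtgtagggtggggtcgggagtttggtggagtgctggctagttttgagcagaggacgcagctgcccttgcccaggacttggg

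Mitotic genes were called in a smaller share than replication genes. Of 63 tested, 28 were higher at 12 h and 1 was lower, with a median log2 fold change of 2.53. Summed over the list, the level was 430.1 to 470.3 CPM at 4 h and 1069 to 1166 at 12 h. It was 1797 to 1925 CPM in the control and 7870 to 8748 at 24 h, so the sum at 12 h was still below the control. Cenpe, a kinetochore motor, was at 8.08, 2.63 and 4.32 at 4 h and 53.9, 76 and 115 at 12 h (log2 fold change 3.96 ± 0.44), and at 1124 ± 249 at 24 h. Cenpk, a kinetochore subunit, was at 3.85 ± 5.82 and 59.6 ± 4.94, and Top2a, which untangles replicated chromosomes, rose from 25.7 ± 12.1 to 205 ± 53. The proliferation marker Mki67 was at 10.3 ± 9.91 at 4 h and 17.4 ± 7.82 at 12 h and was not called, against 2499 ± 514 at 24 h. Kif15, a spindle motor, was the member that fell, at 146, 174 and 122 and 52, 97.8 and 30.5, and its call was lost without 12 h replicate 3 (shrunken value -0.96). None of 59 histone genes was called by DESeq2, with a median of 0.31. By the adjusted p alone 8 were higher and 1 lower, at an unadjusted p under 0.05 10 were higher and 2 lower, and edgeR called 6 higher and limma-voom 2. Of 27 nucleotide synthesis genes, 5 were higher (Rrm2, Rrm1, Tyms and Prps2 among them) and 1 was lower. Rrm2, the small subunit of ribonucleotide reductase, was at 2.02, 1.32 and 1.08 and 23.5, 33.1 and 25.8. Impdh1, which controls guanine nucleotide synthesis, fell from 645 ± 7.76 to 296 ± 49.2, and was not called without 12 h replicate 1 (shrunken value -0.96). Of 23 genes of DNA and histone modification, 6 were higher, among them Uhrf1, Dnmt1 and Tet1 (2.61 ± 0.44 to 30.4 ± 12.2), and 4 were lower. The de novo methyltransferase Dnmt3a was at 3428, 3098 and 3121 and 832, 684 and 899 (log2 fold change -2.00 ± 0.11), and the demethylase Kdm6b was at 1684, 1827 and 1954 and 325, 281 and 402 (log2 fold change -2.45 ± 0.14).

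**Figure D3:**
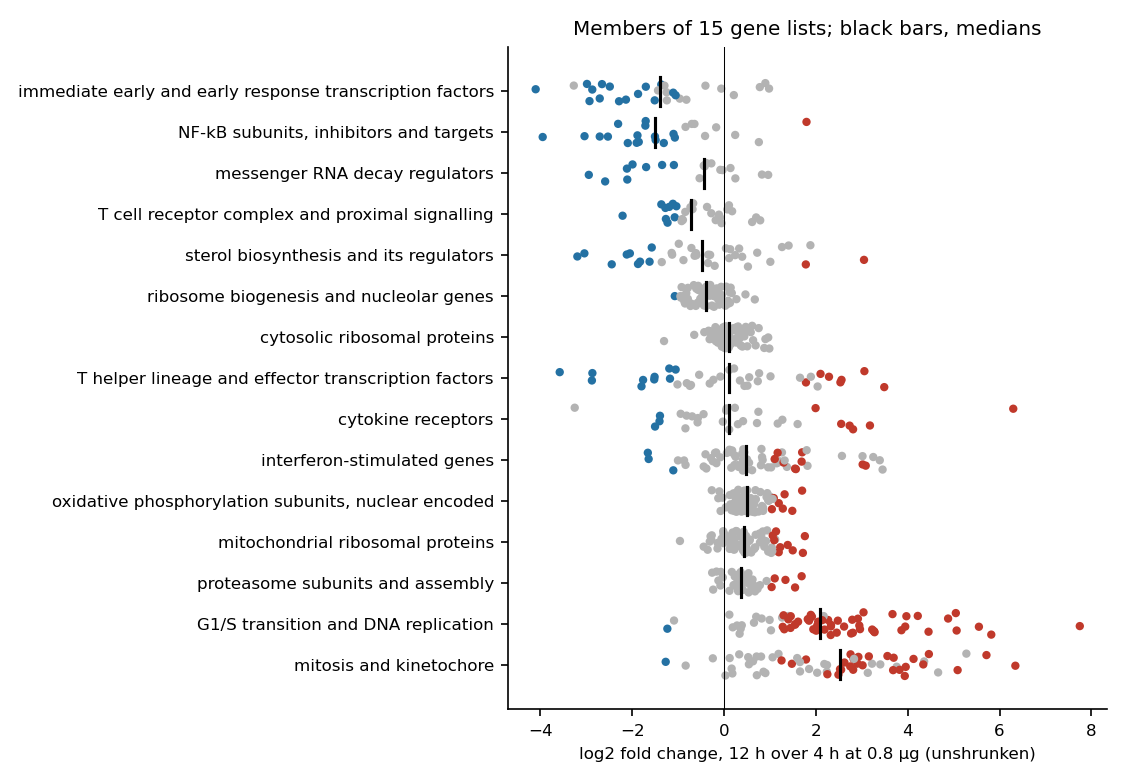
Unshrunken log2 fold change (12 h over 4 h, 0.8 µg, x axis) of the tested members of 15 gene lists (rows), 1 point per gene, with called members in colour and a line at each list's median. The replication median of 2.09 and the mitosis median of 2.53 lie to the right of 0, and the NF-κB median of -1.5 and the early response median of -1.40 to the left.

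Among genes of lipid synthesis, most calls were decreases. Of 36 sterol and fatty acid genes, 9 were lower and 2 were higher. Hmgcs1, an early enzyme of cholesterol synthesis, went from 894 ± 302 to 252 ± 10.5, and Cyp51 from 868 ± 223 to 160.5 ± 34.6. Insig1, the sterol sensor that restrains the pathway, was at 179, 142 and 237 and 15.7, 20.3 and 25.8 (log2 fold change -3.19 ± 0.29). Idi1, Sqle, Msmo1 and Srebf2 fell as well. Mvk (6.89 ± 2.56 to 24.4 ± 8.71) and the fatty acid desaturase Scd2 (11.3 ± 4.8 to 95.7 ± 4.65) rose. The sterol response letters TCACCCCAC, also chosen as known for such genes, were found in 1 of 31 windows of these genes (3.23%) against 0.551% of all windows. These shares are no result of these data. The window of Hmgcs1 (chr13:119690101-119690400, plus strand), the 1 with a match, is shown with those letters in capitals.
Hmgcs1: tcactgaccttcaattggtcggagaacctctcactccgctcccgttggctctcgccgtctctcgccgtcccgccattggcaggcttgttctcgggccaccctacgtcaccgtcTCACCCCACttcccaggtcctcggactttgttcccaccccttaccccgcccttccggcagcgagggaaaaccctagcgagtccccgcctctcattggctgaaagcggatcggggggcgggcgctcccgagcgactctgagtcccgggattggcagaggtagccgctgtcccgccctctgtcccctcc

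Of 30 glycolysis genes, 4 were higher and none was lower, against 9.02% and 6.47% of all genes. By the adjusted p alone 10 were higher and 2 lower (3 lower at an unadjusted p under 0.05, none called by edgeR or limma-voom). Eno3, an enolase, was at 34.3, 6.59 and 19.4 at 4 h and 217, 189.6 and 181 at 12 h (log2 fold change 3.24 ± 0.36), and Tpi1, triosephosphate isomerase, was at 64.4 ± 7.12 and 267 ± 16.4, with Gapdh and Pfkm also higher. Nuclear genes of oxidative phosphorylation mostly changed by less than the fold threshold. Of 76 tested, 7 were called higher and none lower, nor was any lower at an unadjusted p under 0.05 or by edgeR or limma-voom, and 53 were higher by the adjusted p alone, with a median log2 fold change of 0.51. Over all genes these shares were 9.02% for calls and 19.8% for the adjusted p alone. Ndufb3 (75.1 ± 24.6 to 241 ± 20.9) and Ndufb10 (55.6 ± 4.94 to 157 ± 7.77), both subunits of complex I, led the list. Of 76 mitochondrial ribosome genes, 9 were called higher and 36 were higher by the adjusted p alone, led by Mrpl14 (36.3 ± 14.4 to 124 ± 16.5) and Mrpl18 (162 ± 10.6 to 536 ± 82). Of the 8 genes encoded in the mitochondrial genome that were tested, mt-Nd6 alone was called (50.2 ± 8.42 to 122 ± 25.2). It lies opposite mt-Nd5 on the circular genome, and the strand setting of the counts was not given in the sources used here. The share of mitochondrial mRNA in the libraries moved in the same direction, as given above.

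Few genes for protein synthesis were called. DESeq2 called none of 86 cytosolic ribosomal protein genes (median 0.10), although 24 were higher and 6 lower by the adjusted p alone, against 19.8% and 17.3% of all genes. At an unadjusted p under 0.05 these counts were 30 and 8, and limma-voom called 1 higher and edgeR none. DESeq2 called none of 57 splicing genes, with 18 higher and 8 lower by the adjusted p alone (24 and 10 at an unadjusted p under 0.05), and none of 22 tRNA synthetase genes, with 4 higher and 4 lower by the adjusted p alone (7 and 4 at an unadjusted p under 0.05). Neither edgeR nor limma-voom called any of them. Ribosome biogenesis had 1 call of 70 genes, the helicase Ddx10 (1790.3 ± 61.8 to 853 ± 62.6), while 38 were lower by the adjusted p alone, against 17.3% of all genes, and the median was -0.39. Of 65 translation factors 1 was called, Eif4e3 (4.31 ± 2.28 to 24 ± 9.75). Of 14 amino acid transporters 3 were lower, among them Slc7a1 (2818, 2703 and 2567 to 637, 683 and 611), which carries arginine, and Slc1a5 (1874 ± 14 to 509 ± 92.2), which carries glutamine, and Slc43a3 was higher (3.44 ± 2.98 to 20.8 ± 7.9). Of 22 genes of the ATF4 and one-carbon pathways, the serine synthesis enzymes Psph (14.8 ± 10 to 82.6 ± 19.7) and Phgdh (20.5 ± 1.52 to 78.2 ± 26.4) rose and the stress genes Atf5 (47.4 ± 17.7 to 13.5 ± 3.39) and Ppp1r15a (196 ± 6.64 to 45.5 ± 14) fell. Of 46 proteasome genes, 5 were called higher, a share near the 9.02% of all genes, and 26 were higher by the adjusted p alone, against 19.8% of all genes. The called genes included the immunoproteasome subunits Psmb8 (219, 261 and 256 to 808, 828 and 728, log2 fold change 1.69 ± 0.11) and Psmb9 (47.6 ± 10.8 to 138 ± 19.7). Of 32 chaperone genes 4 were called higher, against 9.02% of all genes, and 19 were higher by the adjusted p alone, against 19.8%. The called genes included the mitochondrial chaperonin Hspe1 (1218 ± 39.9 to 2935 ± 402) and Chordc1 (346 ± 68 to 1010.0 ± 354). The heat shock gene Hspa1b was also called, but it was at 9.8, 0.75 and 244 in the 12 h libraries, so that 1 library carried nearly all of its level, and its 4 h libraries had no count. Of 26 unfolded protein response genes few were called, in shares below those of all genes. Sdf2l1 (45 ± 7.23 to 114 ± 24.9) and Edem1 (78.6 ± 6.08 to 183 ± 17.2) were higher, and Dnajb9 was lower (49.8 ± 14.2 to 7 ± 1.21).

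Among interferon response genes the number of calls depended on the estimate used. Of 64 tested, 9 were higher and 3 were lower, against 9.02% and 6.47% of all genes. Their summed level was 3379 to 3706 CPM at 4 h and 2633 to 3384 at 12 h. With edgeR 17 were higher, with a fit to the 6 libraries alone 14, and with unshrunken DESeq2 estimates 18. Over all genes, 1574, 1143 and 1578 were higher under these settings, against 1166 in the main fit. Ifit2, an antiviral RNA-binding protein, was at 6.06, 6.59 and 8.63 at 4 h and 61.8, 55.7 and 55.2 at 12 h (log2 fold change 3.02 ± 0.40), against 195 ± 35.2 in the control. Usp18, Xaf1, Trim30a, Herc6 and 3 immunoproteasome genes were also among the increases. Ifi27l2a fell from 191 ± 10.7 to 60.9 ± 17.5, and B2m and Isg20 were lower. Isg20 was at 16.1, 21.1 and 17.3 and 6.86, 9.03 and 0, and was not called without 12 h replicate 3 (shrunken value -1.02, adjusted p = 0.0683). Of 14 cytotoxicity genes, 5 were higher (Gzmb, Serpinb6b, Serpinb9, Nkg7 and Cst7) and 2 were lower. Gzmb, the protease of cytotoxic granules, was at 0, 7.9 and 0 and 43.1, 61.7 and 27. Its call was lost without 12 h replicate 1 (shrunken value 0.85), without 80 µg 4 h replicate 1, which shares the fit (0.95), in the fit to 6 libraries (0.86), and with the replicate number as a block (0.81). Serpinb9, which protects cells from granzyme B, was at 26.2, 67.2 and 36.7 and 380.4, 584 and 258 (log2 fold change 3.25 ± 0.35). The decreases were Fasl and Srgn, the core protein of granule proteoglycans (2539 ± 692 to 281 ± 63.1).

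The called regulators of mRNA decay were all lower. Of 19 tested, 8 were lower and none was higher, with 1 higher by the adjusted p alone, 2 at an unadjusted p under 0.05, 1 called by limma-voom and none by edgeR. Zfp36l1, which binds AU-rich elements of cytokine mRNAs, was at 3023, 3537 and 3639 at 4 h and 549.9, 596 and 548 at 12 h (log2 fold change -2.59 ± 0.10), and Zfp36, Zfp36l2, Zc3h12a, Zc3h12d, Tob1, Btg1 and Btg2 were the others. Calls were few in the Gimap and zinc lists, and against the 6.47% of all genes called lower they are no result about these lists. Of the 8 Gimap GTPase genes 1 was lower, Gimap6 (407 ± 69.3 to 155 ± 16.6). Of 14 metallothionein and zinc transport genes, Slc39a6 (485 ± 32.1 to 145 ± 21.5) and Slc30a4 (71.8 ± 27.4 to 29.3 ± 8.57) fell, the latter not without 12 h replicate 3 (shrunken value -0.89) or 4 h replicate 2 (-0.81). The metallothioneins Mt1 (1.47 ± 0.49 and 2.18 ± 1.9) and Mt2 (0.44 ± 0.76 and 1 ± 1.74) were near the floor at both times. Of 305 zinc finger genes named Zfp with a number and at most 1 letter, which leaves out Zfp36l1 and Zfp36l2, 18 were higher and 14 were lower, shares below those of all genes. Zfp367 had 3 raw counts over the 4 h libraries and 47, 49.6 and 43.4 normalised counts at 12 h, and Zfp239 was at 2.78 ± 2.42 and 30.7 ± 19.7. Zfp874b (24.9 ± 9.39 to 2.88 ± 1.67) and Zfp384 (51.1 ± 16.7 to 13.9 ± 3.31) had the largest decreases of that list. Of 37 genes in the modules and scores that the study built, 12 were lower and 5 were higher. The study chose part of them on these samples, so this count is not independent evidence of a direction. Malt1 (95 ± 21.4 and 83.4 ± 7.25) and Tnip3 (61 ± 31 and 103 ± 72.4) were among those not called.

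The changes were also set beside the levels in unimmunised control cells. Of the 1166 genes that rose, 767 had a 12 h mean nearer to the control mean than the 4 h mean was, and 639 were above the control at 12 h, compared with 191 at 4 h. Of the 836 genes that fell, 449 had a 12 h mean nearer to the control, 631 had been above the control at 4 h, and 260 were still above it at 12 h. These counts use means only and carry no test.

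The same interval was compared in mice that received 80 µg, whose 4 h and 12 h groups share no library with the low-dose groups. With 80 µg, 1651 genes were higher at 12 h (12.8% of those tested) and 1003 were lower (7.76%). Of the 2002 genes called at 0.8 µg, 1401 were called at 80 µg too, which is 70% of the low-dose and 52.8% of the high-dose calls, and 1397 of the 1401 changed in the same direction. The difference between the changes at both doses was tested directly in the same model for 9366 genes, and 437 were called (4.67%), 235 with a more positive change at 80 µg and 202 with a more negative one. Of these 437 genes, 158 were among the 2002 low-dose calls.

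**Figure D4:**
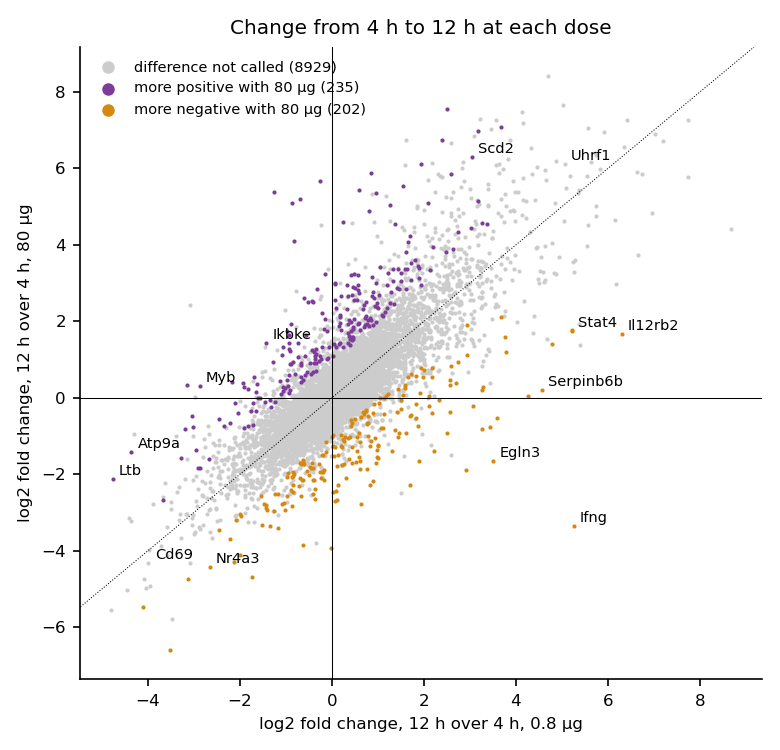
Unshrunken log2 fold change from 4 h to 12 h with 0.8 µg (x axis) and with 80 µg (y axis) for every gene tested for a difference between doses, 1 point each, with the 437 genes called for that difference in colour. Most points follow the diagonal, and the labelled genes Ifng, Egln3, Il12rb2 and Serpinb6b lie under it.

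Among the lists, 50 of the 66 replication genes were higher at 0.8 µg and 57 at 80 µg, and 6 were called for a more positive and 1 for a more negative change at 80 µg. In proximal TCR signalling, 9 of 28 genes were lower at 0.8 µg and none was higher, while at 80 µg 5 were higher and 5 were lower. The difference between doses was called more positive at 80 µg for 8 of these genes and more negative for 1. Cd5, Cd3e, Lck and Rasgrp1 were among the 8, with differences of 1.55 ± 0.25, 1.36 ± 0.17, 1.38 ± 0.12 and 1.21 ± 0.21 on the log2 scale. For Lck the means at 80 µg were 439.6 ± 39.8 at 4 h and 886 ± 17.2 at 12 h. Of 36 sterol and fatty acid genes, 9 were lower and 2 higher at 0.8 µg, 2 lower and 8 higher at 80 µg, and 12 were called for a more positive and 2 for a more negative change at 80 µg. Interferon response genes went the other way, with 17 of 64 called for a more negative change at 80 µg and 1 for a more positive one. At 80 µg 5 of them were higher and 15 lower.

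The genes with the largest differences between doses included effector genes that rose with the low dose. Ifng had reached 315 ± 397 normalised counts at 4 h with 80 µg, where 1 library carried most of the mean, and was at 30.9 ± 3.59 at 12 h, while with 0.8 µg it went from 4.11 ± 3.67 to 157 ± 72.7 (difference -8.61 ± 1.30, adjusted p = 4.26e-09). Il12rb2 was at 48.3 ± 28.7 and 153 ± 24.8 with 80 µg (difference -4.63 ± 1.18). Serpinb6b was at 461 ± 97.6 and 531 ± 50.3 with 80 µg (difference -4.36 ± 0.38), so its 4 h level with the high dose was near the 12 h level with the low dose. Egln3, an oxygen-sensing prolyl hydroxylase, was at 6.37 ± 0.28 and 71.6 ± 35.5 with 0.8 µg and 117 ± 4.4 and 37.1 ± 6.11 with 80 µg (difference -5.15 ± 0.69), and Lif differed by -4.81 ± 1.05. In these 5 genes the log2 fold change was smaller or negative with the high dose. In normalised counts, Il12rb2 gained more with 80 µg, and its low-dose fold starts from 2 raw counts. The differences of the opposite sign were led by Scd2, Myb, Arl4c, Atp9a and Ikbke. Myb was at 686 ± 62.7 and 94.4 ± 18.6 with 0.8 µg and 61 ± 12.6 and 75.6 ± 5.31 with 80 µg (difference 3.18 ± 0.27). Ikbke, a kinase of innate signalling, was at 90.8 ± 8.54 and 34.6 ± 9.71 with 0.8 µg and 14.5 ± 5.74 and 38.2 ± 2.6 with 80 µg (difference 2.86 ± 0.38). Atp9a, a lipid flippase, fell from 83.4 ± 18.4 to 4.07 ± 2.44 with 0.8 µg and was at 39.4 ± 10.7 and 14.6 ± 9.09 with 80 µg. Scd2 and Arl4c rose at both doses, from lower 4 h levels with 80 µg (1.16 ± 2 and 2.82 ± 2.59) than with 0.8 µg (11.3 ± 4.8 and 12.6 ± 3.11). The call of Scd2 was lost without 80 µg 4 h replicate 2 (difference 2.66) or replicate 3 (2.57), and without replicate 1 the difference was 5.81.

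**Figure D5:**
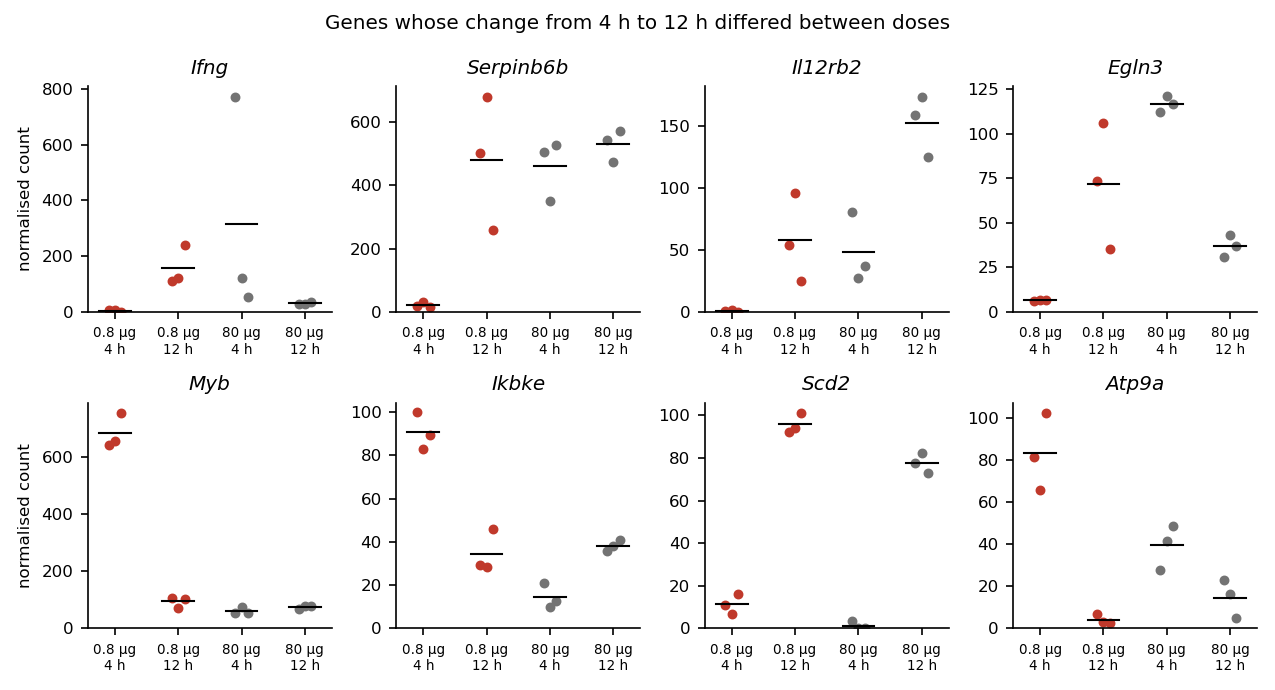
Normalised counts (y axis, linear and from 0 in each panel) of Ifng, Serpinb6b, Il12rb2, Egln3, Myb, Ikbke, Scd2 and Atp9a at 4 h and 12 h with 0.8 µg and with 80 µg, 1 point per mouse with a bar at the group mean. The 0.8 µg 4 h points of Ifng, Serpinb6b, Il12rb2 and Egln3 lie below those of the other 3 groups, and those of Myb, Ikbke and Atp9a lie above them.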

How the data were processed

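The data are QuantSeq 3′ mRNA libraries of sorted splenic CD4+ T cells, with 3 mice per group. The deposited whole-number counts were made by the authors, who trimmed the reads with Bbduk, aligned them to GRCm38 (mm10) with STAR 2.5.2a and counted them per gene with HTSeq. Which annotation release HTSeq used, its strand option, and whether molecular identifiers were read are not given in the sources used here. The deposited log2 values are the authors' regularised log transformation and served here only to check signs: of the 2002 called genes 1998 were listed, all 1998 with the same sign. Gene names came from the deposited tables and GENCODE vM21, which also gave locations (GRCm38, counted from 1), and 18 symbols turned into dates by a spreadsheet were replaced.

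The test was that of DESeq2 1.42.0 under R 4.3.3 (Wald test, 1 coefficient per group, all 21 libraries, normal-prior shrinkage), after the filter and thresholds of the study's methods. Of 47643 genes, 15300 had at least 10 counts over all libraries, and DESeq2's independent filtering left 12925 with an adjusted p (9366 for the difference between doses). Calls needed an adjusted p under 0.05 and an absolute shrunken log2 fold change above 1. The difference between doses, (80 µg 12 h − 80 µg 4 h) − (0.8 µg 12 h − 0.8 µg 4 h), used the unshrunken value with the same thresholds. An exact permutation test of 3 against 3 libraries cannot give a p under 0.1, so none was used. The procedure was tested on simulated data. Alternatives used edgeR 4.0.16 (quasi-likelihood test), limma 3.58.1 (voom), other size factors and filters, thinning every library to 2352800 counts, removal of Gm42418 and mitochondrial rRNA, unshrunken estimates, no fold threshold, a replicate block, and leaving out each library. Tables and figures were made with Python 3.11.15, pandas 2.3.3 and matplotlib 3.10.9.

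Genes were named by a rule: the 10 largest shrunken changes each way among called genes with no overlap between groups and a mean of at least 50 normalised counts in the higher group, up to 2 called members each way of every gene list, the genes of the study's modules and scores, and up to 5 differences between doses each way. Some genes that the rule names are not reported here. Other members were named after their values were seen. Members and lists were chosen with earlier results of these data known. Of 142 genes named by the rule, 52 have an exon that overlaps another gene, which lies on the opposite strand for 43 and on the same strand for 11 (both for some). Without a known strand setting their reads cannot be assigned with certainty. Promoter windows are from RefSeq (GRCm38.p6). Intervals are not given for normalised counts, and the floor of 3 counts covers counting error only.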

Additional observations from a re-analysis of the deposited data

Results flagged for a closer look

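For 31 of the genes reported here under the rule for named genes, the change from 4 h to 12 h differed between 0.8 µg and 80 µg by the DESeq2 test of the difference (adjusted p under 0.05 and an absolute log2 difference above 1, 3 mice in each of 4 groups). Differences are given on the log2 scale as the change with 80 µg minus the change with 0.8 µg.

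The change was more positive with 80 µg for the TCR signalling genes Cd3e (1.36), Cd5 (1.55), Lck (1.38) and Rasgrp1 (1.21), the fatty acid desaturase Scd2 (3.26), and Myb (3.18), Arl4c (3.01), Atp9a (2.93), Ikbke (2.86), Ltb (2.64), Dtx1 (1.60), Btg1 (1.59) and Myo10 (1.02). It was more negative with 80 µg for the effector genes Ifng (-8.61), Lif (-4.81), Il12rb2 (-4.63), Serpinb6b (-4.36), Gzmb (-4.20), Serpinb9 (-4.07) and Stat4 (-3.47). The same sign was found for the early response genes Nr4a1 (-2.16), Nr4a3 (-1.77) and Nr4a2 (-1.38). It was also found for Irf8 (-1.59), Egln3 (-5.15), Ctla4 (-4.13), Tnip3 (-2.63), Ikzf2 (-2.09), Psmb9 (-1.47), Izumo1r (-1.12) and Kdm6b (-1.01).

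When each of the 12 libraries of these groups was left out in turn, 25 of the 31 genes were called every time and all 31 kept their sign. Tnip3 was called in 3 of 12 fits, Nr4a3 in 5, Myo10 in 6, Izumo1r in 7, Kdm6b in 8 and Scd2 in 10. The difference of Ifng ranged from -9.32 to -6.75 and that of Gzmb from -7.79 (without 0.8 µg 4 h replicate 2) to -3.54 over these fits. That of Scd2 ranged from 2.57 (without 80 µg 4 h replicate 3) to 5.81 (without 80 µg 4 h replicate 1). Nr4a3 drives the Timer protein used for sorting.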

How the results depend on the processing

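Over all genes, the numbers called kept within 1.5 times the reported value under every alternative except those that follow. Without the threshold on fold change, 4794 genes changed at 0.8 µg (2557 higher, 2237 lower) in place of 2002, 5401 changed at 80 µg (2973 higher, 2428 lower), and 717 differed between doses (393 more positive with 80 µg, 324 more negative), because the requirement on size was dropped. Of the list counts recomputed under every alternative, 11 moved by over 1.5 times for the same reason, and counts of lists not recomputed in this way moved too, such as ribosome biogenesis with 38 lower and chaperones with 19 higher. Among the 11, proximal TCR signalling had 17 lower, lineage factors 15 higher, quiescence 10 higher, anergy 10 lower, sterol 16 lower, nucleotide synthesis 10 higher, oxidative phosphorylation 53, mitochondrial ribosome 36, proteasome 26, interferon 22 and the study's modules 8 higher. With limma-voom, 152 genes had a more positive change with 80 µg in place of 235, and the cause was not tested. For the 0.8 µg comparison edgeR called 2611 genes, limma-voom 2697, unshrunken estimates 2590, TMM size factors 1998, no low-count filter 1999, at least 10 counts in 3 samples 2067, the fit to the 6 libraries alone 1973, removal of Gm42418 and mitochondrial rRNA 2003, and thinning 1821. No result called in the main fit changed direction in any alternative. Some genes that were not called had opposite signs in the shrunken and unshrunken estimates, such as Il21 (-1.39 and 1.73).

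Leaving out 1 library at a time gave 1781 to 2036 genes at 0.8 µg (1010 to 1182 higher, 762 to 854 lower), 2395 to 2669 at 80 µg (1487 to 1661 higher, 908 to 1013 lower), and 367 to 540 for the difference between doses (197 to 296 more positive, 165 to 244 more negative). Each alternative kept at least 115 of the 122 genes that were called and named by the rule. The genes lost without 1 library are given in the report. Rasgrp1 was also lost when libraries were thinned (-0.99), and Isg20 in the fit to the 6 libraries (-1.02, adjusted p = 0.073). Ctla4 was called in that fit (2.24), by unshrunken estimates (3.60) and without 12 h replicate 3 (1.38).

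With the replicate number as a block 1954 genes were called at 0.8 µg, 1938 of them among the 2002, and 411 for the difference between doses. No source used here says whether the numbers pair the mice. Deviations from the group means correlated at 0.0363, 0.227 and 0.252 for same-numbered 4 h and 12 h libraries of replicates 1, 2 and 3. These correlations run across genes, which are not independent. Each 4 h library correlated best with the 12 h library of its own number, while 12 h replicate 1 correlated best with 4 h replicate 2 (0.131). In both groups replicate 3 alone was high in Ddx3y, so these values cannot decide whether the numbers mark pairs.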
